A study of Mus musculus with 6 samples.

Results

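The genes described here encode 7 subunits of the GABA-A receptor: the alpha subunit genes Gabra2, Gabra3, Gabra4 and Gabra5, the beta subunit genes Gabrb1 and Gabrb2, and the delta subunit gene Gabrd. They were examined in a deposited list of 2197 peaks of RNA bound to AGO2, an Argonaute protein, which carries a microRNA (miRNA) that guides it to target transcripts. A peak was counted for a gene when its midpoint lay within the gene span on mm10, and 6 of the 2197 peaks met this rule. The tissue was cortex of mice at postnatal day 14, carrying a VGLUT2-Cre driver and a conditional Spy3-AGO2 allele. Spy3 is a peptide tag through which AGO2 was captured on a resin bearing SpyCatcher3. The 6 libraries of the series form 3 groups of 2 (miRNAs bound by AGO2, targets bound by AGO2, and input from whole lysate), and all share this genotype, tissue and age. The tag was switched on where the VGLUT2 (Slc17a6) driver had been active, and the labels name the cells pyramidal neurons, the main excitatory neurons of the cortex. Whether replicates were taken from different animals is not stated, so their spread may be technical.

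GABA-A receptors are pentameric chloride channels opened by the inhibitory transmitter GABA. Most contain alpha and beta subunits together with a gamma or a delta subunit, and the subunits present set where the receptor sits and how long its current lasts. Receptors with a gamma subunit mostly gather at synapses and give brief inhibitory currents, whereas receptors with a delta subunit, and many with alpha5, lie outside synapses and give a sustained current. In the cortex the subunit composition is known to shift as circuits mature during the first postnatal weeks. A miRNA held by AGO2 usually pairs with the 3′ untranslated region of an mRNA and lowers its translation or stability.

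Peaks lay in both beta subunit genes of the set and in none of the other 5 genes. Gabrb2, which encodes the beta subunit found most widely in the adult forebrain, had 5 peaks, and Gabrb1, which encodes another beta subunit, had 1. The 4 alpha subunit genes and Gabrd had 0 peaks each, so the median was 0 peaks per gene. The share of members with a peak was therefore 28.6% (2 of 7), beside 4.3% (941 of 21883) of all nuclear protein-coding genes, whose median was also 0. With at least 5 peaks required, the share of all these genes was 0.292% (64 genes). The genes were chosen with results of this list known, so these counts are a description. The list carries no values of single libraries and a score of 0 for every peak, so none of the counts has a replicate check. It comes from tagged AGO2 captured from cortex and not from single cells, so fewer cells of a type and less RNA per cell cannot be told apart. Expression of the genes was not analysed here, and 0 peaks is not a measure of low expression or of absent AGO2 binding.

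The 5 peaks of Gabrb2 formed a group at the 3′ end of the gene. The gene occupies chr11:42419515-42632591 on the plus strand, a span of 213 kb with 6 RefSeq transcripts in the gene table. Read towards the 3′ end, the first peak lay at chr11:42629821-42629870 (50 nt wide, midpoint 2.75 kb before the end of the span). The second lay at chr11:42630315-42630348 (34 nt wide, 2.26 kb before the end). The group then continued with a closely spaced pair.

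The third peak lay at chr11:42630782-42630847 (66 nt wide, 1.78 kb before the end) and the next at chr11:42630943-42630983 (41 nt wide, 1.63 kb before the end). The last lay at chr11:42632500-42632572, was 73 nt wide and had its midpoint 55.0 nt before the end of the span. All 5 were on the plus strand, the strand of the gene. No peak lay in the 210.0 kb between the start of the span and the first of them.

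The spacing of the Gabrb2 peaks was uneven. The gaps between neighbouring peaks were 444 nt, 433 nt, 95 nt and 1516 nt in 5′ to 3′ order, so the pair in the middle of the group was the closest and the last peak stood apart from the others. From the first to the last base the group extended over 2752 nt, which is 1.29% of the span. The peaks covered 264 of these bases (9.59%). Whether they fall in an exon or in the 3′ untranslated region was not determined, since exon positions were not used here.

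**Figure D1:**
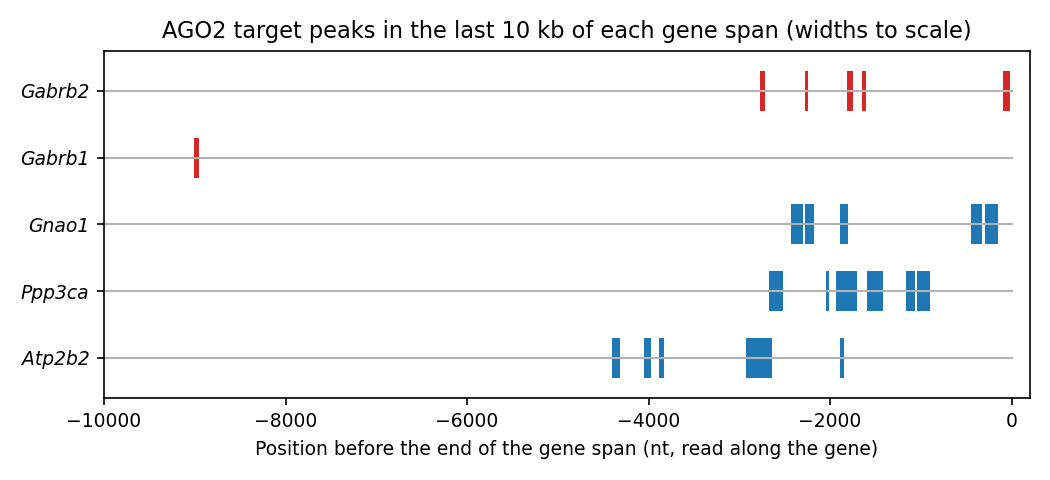
The last 10 kb before the 3′ end of 5 gene spans is drawn with each peak as a box at its true width, for Gabrb2 and Gabrb1 (red) and for the 3 genes whose peaks were most like those of Gabrb2 (blue). The x axis is the position before the end of the span in nucleotides, read along the gene. The midpoints of the 5 Gabrb2 peaks lie within 2.75 kb of the end, and that of the single Gabrb1 peak lies 8.98 kb from it.

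Gabrb1 differed from Gabrb2 in number and position of peaks. Its span is more than double that of Gabrb2, 492 kb at chr5:71657921-72149572 on the plus strand, with 2 RefSeq transcripts in the table. The single peak lay at chr5:72140567-72140623, on the strand of the gene, and was 57 nt wide. Its midpoint was 8.98 kb before the end of the span, which is 1.83% of the span. All 5 Gabrb2 peaks were closer to their gene end, both in distance and as a share of the span (0.0258% to 1.29%). Scaled to the whole gene span, Gabrb1 carried 0.203 peaks per 100 kb and Gabrb2 carried 2.35. The peaks of both genes lay within the last 1.83% of the span, so both rates depend mostly on length that held no peak.

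All 6 peaks of the set lay in the last 10% of their gene span (exact 95% Clopper-Pearson interval 54.1 to 100.0%, treating peaks as independent, which the 5 of Gabrb2 are not). Among the 1570 peaks credited to exactly 1 nuclear protein-coding gene, 65.5% lay there. For genes without a given strand, the end was read along the strand of the peak. With the last 5% of the span as the limit, the share was again 6 of 6 in the set and 56.9% among these 1570 peaks. In absolute distance the set was not close to gene ends compared with other peaks. The median distance of its peaks was 2.02 kb, beside 1.63 kb over the 1570 peaks, of which the middle 50% lay 0.4 to 7.44 kb from the end. The long spans of Gabrb1 and Gabrb2 make a given distance a small percentage of the span.

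**Figure D2:**
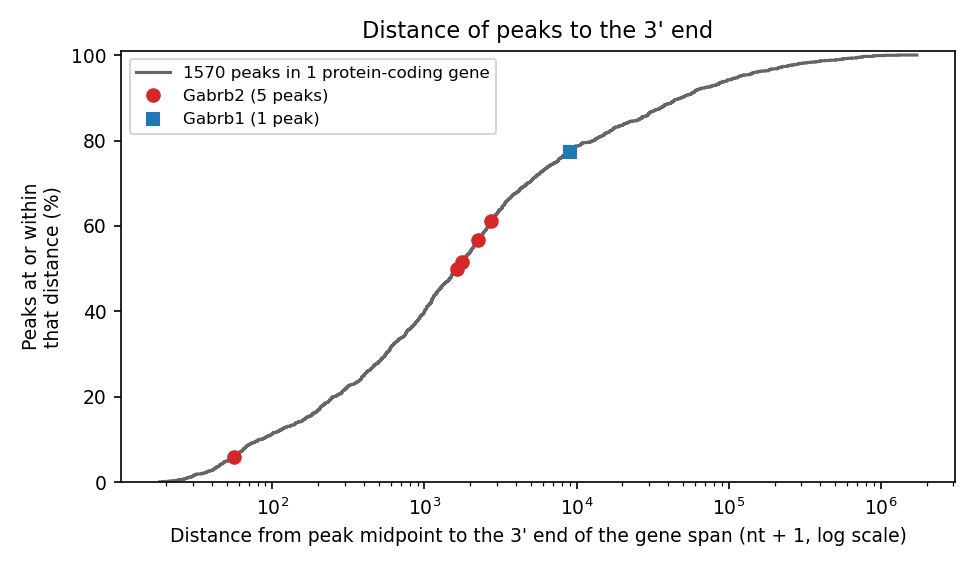
The curve gives the cumulative share (%) of the 1570 peaks in 1 protein-coding gene against the distance from peak midpoint to the 3′ end of the gene span, in nucleotides on a log axis. Circles mark the 5 Gabrb2 peaks and the square marks the Gabrb1 peak. The Gabrb2 peak 55.0 nt from the end sits near the foot of the curve, the other Gabrb2 peaks lie around the median of 1.63 kb, and the Gabrb1 peak lies beyond the upper quartile of 7.44 kb.

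Peak widths in the set were ordinary for the list. They ran from 34 nt to 73 nt with a median of 53.5 nt, beside a median of 53 nt over all 2197 peaks and a middle 50% of 33 to 80 nt. The widest Gabrb2 peak was the one at the end of the span, wider than 70.0% of all peaks, and the narrowest was the second, wider than 25.3%. The Gabrb1 peak was wider than 53.6% of all peaks. All 6 peaks lay on the strand of their gene. Among the 1146 peaks in 1 protein-coding gene of known strand, 1023 (89.3%) did so.

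By number of peaks Gabrb2 stood high among genes that had any. Of the 941 protein-coding genes with a peak, 642 (68.2%) had 1, as Gabrb1 did, while 45 had more than the 5 of Gabrb2 and 18 others had the same number. Among those 18, the stretch from first to last peak ranged from 1.06 to 1050 kb with a median of 4.3 kb, and 7 had a shorter stretch than Gabrb2. Their peaks covered a median of 392.5 bases, and in 3 of the 18 they covered fewer bases than the 264 of Gabrb2. In 4 of the 18 the gene span was longer. By the end read for each peak, all peaks lay in the last 10% of the span in 8 of the 18, as in Gabrb2. Psd3 is 1 of these 8, yet its peaks stretched over 497152 nt of a 522982 nt span. Where a gene had no strand given, the strand of each peak was read, so peaks on opposite strands were measured to opposite ends. Psd3 is therefore not like Gabrb2 in this respect.

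The 3 genes outside the receptor family whose peaks were most like those of Gabrb2 were found by number of peaks, gene span and median distance to the 3′ end, over 941 genes. Gnao1, the gene of the G protein alpha subunit that couples many neuronal receptors, came first (scaled distance 0.198), with 5 peaks, a span of 159 kb and a median distance of 1.85 kb. Ppp3ca, which encodes a catalytic subunit of the phosphatase calcineurin, followed (0.345) with 6 peaks, a span of 268 kb and a median distance of 1.66 kb. Atp2b2, a plasma membrane calcium pump gene, was next (0.393) with 5 peaks, a span of 299 kb and a median distance of 3.86 kb. All 16 peaks of the 3 genes lay in the last 10% of the span, as the 5 of Gabrb2 did. Span and median distance were used for the ranking, so this likeness of position was largely set by the choice of genes. The stretch from first to last peak was 2290 nt in Gnao1, 1773 nt in Ppp3ca and 2557 nt in Atp2b2, in each shorter than the 2752 nt of Gabrb2. Width was not used for the ranking, and here the genes differed in value: peaks were 88 to 144 nt wide in Gnao1, 39 to 226 nt in Ppp3ca and 38 to 282 nt in Atp2b2, beside 34 to 73 nt in Gabrb2. In Gnao1 every peak was wider than the widest of Gabrb2.

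The alpha subunit genes are given next, by their location and the peak nearest to each. Gabra2 encodes a synaptic alpha subunit that is common early in development and at the axon initial segment. Its span, chr5:70958392-71095849 on the minus strand (137 kb), held 0 peaks, and the nearest peak on either strand was that of Gabrb1, 1040 kb away. Gabra4 encodes the alpha subunit that often pairs with delta outside synapses. It lies between Gabra2 and Gabrb1 at chr5:71569734-71658308 on the minus strand (88.6 kb), and the same Gabrb1 peak was nearest, at 482 kb. The spans of Gabra4 and Gabrb1 run in opposite directions and overlap by 388 nt at their 5′ ends. Together with Gabrg1, a gamma subunit gene, these genes form a cluster of 4 within 1400 kb (chr5:70751047-72149572), and the whole cluster held 1 peak.

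Gabra5 encodes the alpha subunit known for extrasynaptic receptors of pyramidal neurons. Its span is chr7:57407669-57591016 on the minus strand (183 kb) and held 0 peaks, with the nearest 1080 kb away in Oca2. Gabra3 encodes an alpha subunit that is more abundant in the immature than in the adult cortex. It lies on the X chromosome, chrX:72432676-72656919 on the minus strand (224 kb), and its nearest peak was 1200 kb away in L1cam. These spans are long: Gabra2, Gabra3 and Gabra5 fall with Gabrb1 and Gabrb2 in the longest of 10 classes of equal size, and Gabra4 in the class below.

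Gabrd encodes the delta subunit of extrasynaptic receptors that respond to neurosteroids. It is the shortest gene of the set, 13.1 kb at chr4:155384979-155398098, and its nearest peak was 157 kb away in Gnb1. Its strand was not given in the tables used here.

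Span length moved with the presence of a peak across the genome, so it is given beside these counts. In the longest class 14.4% of genes had a peak (316 of 2189), in the class of Gabra4 7.54% and in the class of Gabrd 2.56%. Of the 5 members in the longest class, 2 had a peak. Of the 232 genes with a span at least that of Gabrb1, 55 (23.7%) had one. The part of span length in the difference between members was not tested.

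**Figure D3:**
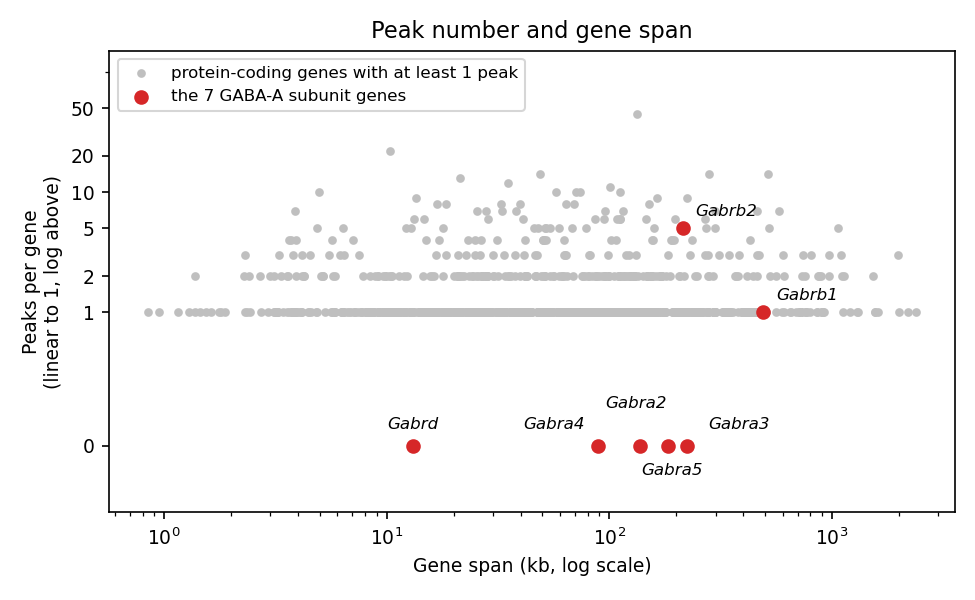
Each grey point is a protein-coding gene with at least 1 peak, placed by its gene span in kb (log axis) and its number of peaks (axis linear up to 1 and log above). The 7 subunit genes are red and include those with 0 peaks. Gabrb2 stands at 5 peaks and 213 kb and Gabrb1 at 1 peak and 492 kb, while the 5 genes with 0 peaks span 13.1 to 224 kb.

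The names of the peaks carry a number, and these numbers give further detail on the genes. Within each of 42 combinations of chromosome and strand the numbers rise with position, and the ranges of the combinations do not overlap. The highest number is 14469, while the list holds 2197 peaks, 15.2% as many. The numbers are thus ordered as places in a longer list would be. What that longer list was, and why numbers are skipped, is not stated in the labels or the list itself.

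The Gabrb2 peaks are numbered 8552, 8553, 8555, 8557 and 8558, so 2 numbers are skipped inside the group, 1 on either side of the middle peak. Between the deposited peaks on either side of the whole gene, 27 numbers are skipped on its strand, in a window of 13600 kb. For Gabrb1, 6 numbers are skipped on its strand between the deposited peaks on either side of the gene, in a window of 6750 kb. The corresponding window of Gabra5 (3030 kb) holds 3 skipped numbers, and that of Gabra3 (3510 kb) holds 8. Gabra2 and Gabra4 share 1 window of 8700 kb with 8 skipped numbers. Each window is far wider than the gene. If skipped numbers follow the order of listed ones, the window counts are upper limits on entries in the gene on its strand. The window counts do not show that any entry lay there. The 2 numbers skipped inside the Gabrb2 group would lie within that gene if skipped numbers follow the same order, which is not stated.

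Of the other subunit genes, 9 were examined: Gabra6, Gabrg1, Gabrg3, Gabre, Gabrp, Gabrq, Gabrr1, Gabrr2 and Gabrr3. They had 0 peaks. Gabra6 is known as a subunit of cerebellar granule cells and the rho subunit genes are best known from the retina. Gabrg3 has the longest span of these, 671 kb, and lies 389 kb from the nearest peak.

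Beyond the subunits, 6 of 28 genes of the GABA synapse had a peak (21.4%), with 7 peaks in all and a median of 0 per gene, beside 4.3% of all nuclear protein-coding genes. This list covers receptor anchoring, trafficking, the metabotropic receptor, chloride transport and the handling of GABA. Of the 8 listed genes in the longest span class, 3 had a peak. Peaks lay in 2 of 7 genes for scaffolds and adhesion, 0 of 12 for auxiliary and trafficking proteins, 2 of 2 for the GABA-B receptor, 1 of 2 for chloride transporters, 1 of 1 for GABA uptake and 0 of 4 for synthesis, vesicle loading and breakdown of GABA. The last group contains Gad1, Gad2 and Slc32a1, which are expressed in the inhibitory neurons that release GABA. Sst, another marker of GABAergic neurons outside this list, had 1 peak. With 4.3% of all genes having a peak, 0 of 4 is not a result about these genes.

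Among the scaffold genes, Nlgn2, the adhesion protein of inhibitory synapses, had 1 peak of 87 nt whose midpoint was 45.0 nt before the end of its span (chr11:69823125-69823211, minus strand). Gphn, which encodes gephyrin, the scaffold that anchors GABA-A and glycine receptors, also had 1 peak of 56 nt (chr12:78351069-78351124, plus strand). That peak was far from the 3′ end, 334 kb before it and 134 kb after the start of a 467 kb span. The contrast between these genes is thus one of position, at an equal number of peaks.

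The GABA-B receptor is the G protein coupled receptor for GABA and needs both of its subunits. Gabbr2 had 1 peak of 82 nt, 0.514 kb before the end of a 329 kb span (chr4:46662792-46662873, minus strand). Gabbr1 had 2 peaks, of 73 nt and 139 nt, which lay 25.2 kb and 17.4 kb before the end of a 28.3 kb span (chr17:37049028-37049100 and chr17:37056796-37056934, plus strand). The peaks of Gabbr1 were thus in the first part of the gene and that of Gabbr2 at its end.

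Slc12a5 encodes KCC2, the chloride extruder whose rise during maturation makes GABA inhibitory. It had 1 peak of 37 nt, 0.262 kb before the end of the span (chr2:164999451-164999487, plus strand). Slc12a2, the chloride importer NKCC1 that dominates in immature neurons, had 0 peaks. Slc6a11, which encodes GAT3, a transporter mainly of astrocytes, had 1 peak of 50 nt, 2.11 kb before the end (chr6:114247756-114247805, plus strand). Of the 7 peaks of this list 4 lay in the last 10% of the span, and the 3 that did not were those of Gphn and Gabbr1.

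**Figure D4:**
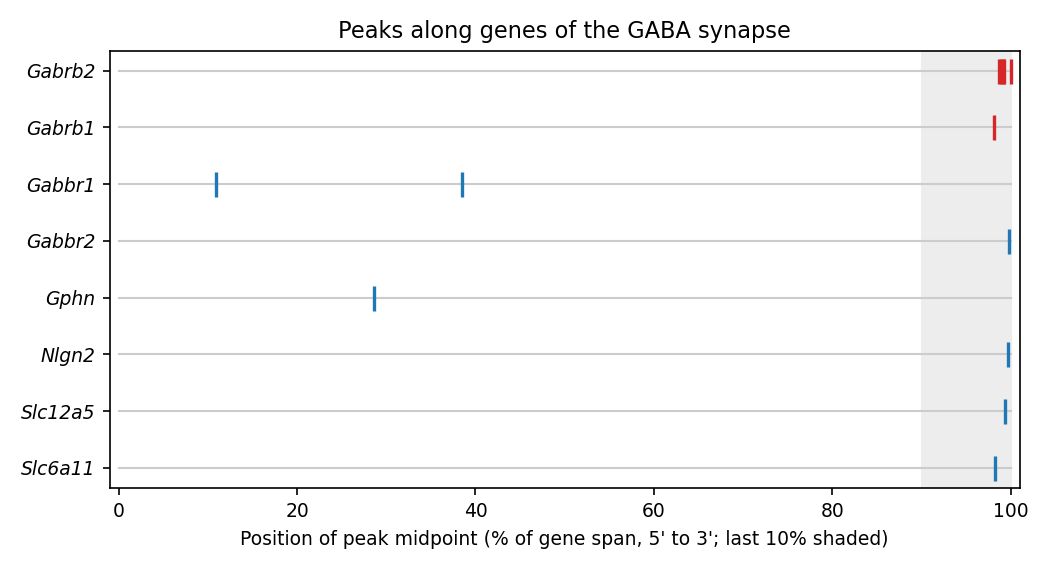
Tick marks give the midpoint of each peak as a percentage of the gene span from 5′ to 3′, for the 2 subunit genes with peaks (red) and the 6 other genes of the GABA synapse with peaks (blue). The last 10% is shaded. The 6 subunit peaks lie in the shaded part, and the peaks outside it belong to Gphn and Gabbr1.

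The peak list also holds genes of other cells. Of the markers listed, 2 of 4 for glutamatergic neurons had a peak (Slc17a7 with 5 and Camk2a with 4), as did 1 of 6 for GABAergic neurons (Sst), 1 of 5 for astrocytes (Slc1a2 with 45), 2 of 3 for oligodendrocytes (Mbp with 2 and Cnp with 1), 0 of 3 for microglia and 0 of 3 for endothelium. For comparison, 4.3% of all nuclear protein-coding genes had a peak. With so few genes per cell type, these counts do not measure how much each type contributed. Slc17a6, the gene after which the Cre driver is named, had 0 peaks. The peaks of Gabrb2 and Gabrb1 cannot be assigned to a cell type from the list, and the part of other cells in them was not tested.

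The miRNA libraries give counts of miRNAs linked to the subunit genes by location or by earlier reports, not counts of the subunit transcripts. They held 66854 and 75658 counts over 1978 listed miRNAs. Several miRNA hairpins lie within the spans of genes of the family. On GRCm38.p6, the assembly of mm10, Mir105 and Mir767 lie on the minus strand within the span of Gabra3, the strand of that gene. Mir6389 lies within the span of Gabra5 on the opposite strand, and Mir224 and Mir452 lie within Gabre. The 7 mature miRNAs from these 5 hairpins had 0 counts in both libraries. Shares of up to 0.00449% (replicate 1) and 0.00397% (replicate 2) remain possible (3 counts, counting error only). At rank 555 of 1978 by mean share they tied with every other miRNA without a count, so 0 counts is not particular to these 7. Those from the 2 members are shown because they are the products that could have been counted, with the seed (bases 2 to 8) in capitals, from RefSeq on GRCm38.p6, 5′ to 3′.
miR-105 (within Gabra3): cCAAGUGCucagaugcuuguggu
miR-767 (within Gabra3): uGCACCAUgguugucugagca
miR-6389 (within Gabra5): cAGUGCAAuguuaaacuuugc
No pair of these shares a seed. Gabra3 and Gabra5 thus had neither a peak nor a count for a miRNA within their span, at this depth. The 2 observations are separate, since a miRNA count does not measure binding of AGO2 to the transcript of the gene.

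Some miRNAs are reported in the literature to act on GABA-A receptor genes. miR-33-5p has been reported to lower Gabra4 and Gabrb2. It had 143 counts in replicate 1 (0.214% of the library) and 197 in replicate 2 (0.26%), a mean of 0.237% ± 0.0329 (SD, n = 2), and ranked 75 among the miRNAs by mean share. The miR-181 family, reported to act on receptor subunits in this family, held 1324 and 1383 counts over its 4 mature 5p forms, 1.98% and 1.83% of the libraries and 1.9% ± 0.108 on average (SD, n = 2). Within it miR-181a-5p led with 660 and 693 counts (0.952% ± 0.0504), followed by miR-181b-5p with 415 and 381 (0.562% ± 0.0829), miR-181c-5p with 200 and 241 (0.309% ± 0.0137) and miR-181d-5p with 49 and 68 (0.0816% ± 0.0117; SD, n = 2 each). These gaps between family members were larger than the SDs. The sequences show what AGO2 would use to find a target: all 4 forms of miR-181 share 1 seed, which miR-33-5p does not have.
miR-33-5p: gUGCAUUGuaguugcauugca
miR-181a-5p: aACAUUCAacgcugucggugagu
miR-181b-5p: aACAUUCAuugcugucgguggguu
miR-181c-5p: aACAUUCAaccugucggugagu
miR-181d-5p: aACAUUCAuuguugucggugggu
With no genome sequence used here, the peaks of Gabrb2 and Gabrb1 were not searched for the complement of any seed, and no peak is assigned to a miRNA.

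**Figure D5:**
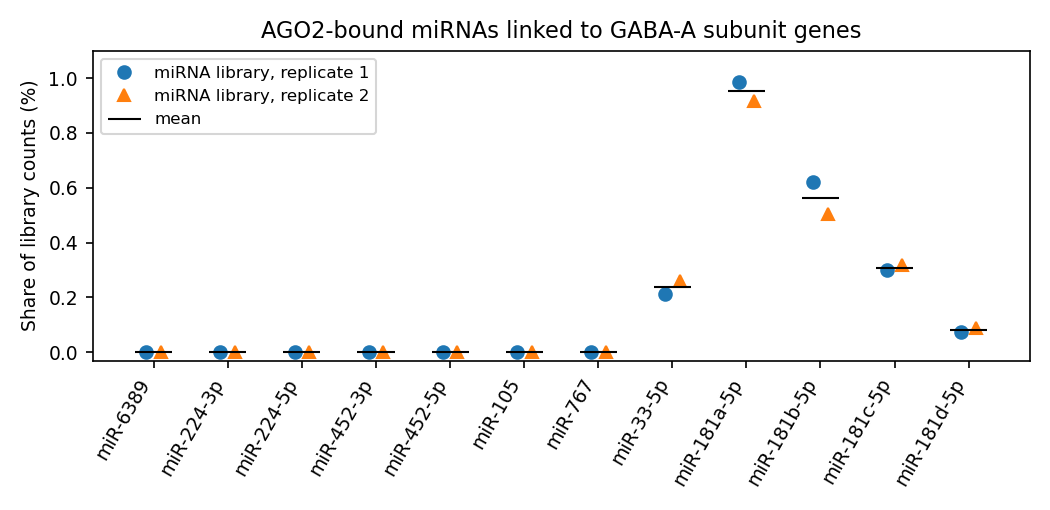
Points give the share of all counts (%) in each of the 2 miRNA libraries and the bar their mean. Shown are the 7 mature miRNAs with hairpins within the spans of subunit genes, miR-33-5p and the 4 miR-181 forms. The first 7 are at 0 in both libraries, miR-33-5p lies at 0.214% and 0.26%, and miR-181a-5p is highest at 0.987% and 0.916%.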

How the data were processed

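Per the submitters' processing notes, the build was mm10 and the tools were deepTools 3.1.3, DESeq2 1.36.0, Bowtie2 2.4.2, STAR 2.5.2a, cutadapt 2.10 and UMI-tools, listed without roles. Which peak caller was used, and whether it pooled libraries or used the input, is not given in the sources used here. In every row the score of the authors' deposited peak list is 0. The miRNA values are counts as deposited, not normalized, and their name says that duplicates were kept. A row for unassigned reads held 0 counts and was left out.

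Genes are spans of RefSeq GRCm38.p6; strand came from RefSeq promoters for 6 of the 7 genes (for others the strand of the peak was read). A peak within a small noncoding RNA gene counted for that gene and not for its host. Coordinates count from 1. Likeness is Euclidean distance over log2 number of peaks, log10 span and log10 (median distance + 1 nt), each divided by its SD. All 7 genes, the other subunit genes and GABA synapse genes with a peak were to be named; some subunit, synapse and marker genes are not reported here and were left out of the list counts. The members and lists were chosen with earlier results of these data known. No test was run, as peaks have no replicates and miRNAs 1 group. Crediting was tested on simulated data: 576 of 576 peaks planted in 200 genes were recovered. These peaks were planted only on the gene strand, in genes of known strand. Genes without a strand, peaks on the opposite strand and wrongly credited peaks were thus not tested. Python 3.11.15, pandas 2.3.3 and SciPy 1.17.1 were used.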

Additional observations from a re-analysis of the deposited data

How the results depend on the processing

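Peaks in Gabrb2 fell from 5 to 2 with peaks at least as wide as the median, and merging peaks within 100 nt gave 4. Without Gabrb2 the median distance to the 3′ end was 8.98 kb, that of the single Gabrb1 peak. With miR-128-3p left out of the denominator, miR-33-5p held 0.273% and the miR-181 family 2.19%, by construction. The single replicates held 0.214 to 0.26% and 1.83 to 1.98%; with 2 replicates, leaving one out cannot move the mean by 1 SD, so this says nothing about stability. Gabrb1 and Gabrb2 both kept a peak under every rule tried, and 6 of 6 peaks stayed within the last 5% of the span. Several of these rules could not have changed this. All 6 peaks lay on the gene strand and in a single gene span. All were at least 34 nt wide and at most 1.83% of the span from the end. The search of peaks for seeds was not run, since no genome sequence was used here. No paired analysis was possible because the peaks are 1 list for both target libraries and the miRNA shares come from no test.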
